A study of Mus musculus with 20 samples.

Results

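The heterogeneous nuclear ribonucleoprotein (hnRNP) genes and the serine and arginine rich splicing factor (SR) genes of the brain were read in *Winnie* and C57BL/6 mice. Members were taken by gene name, as every measured gene whose symbol starts with Hnrnp or Srsf. This gave 31 of the 17211 genes in the table, 20 hnRNP and 11 SR genes. The pair of families was chosen from the fold changes between *Winnie* and C57BL/6 in these same brains, so the estimates, intervals and calls of that contrast are given for the members as a description and support nothing about them. The samples are 10 brains of C57BL/6 mice and 10 brains of *Winnie* mice, all aged 14 weeks and with no treatment named in the labels. Each genotype has 5 brains of each labelled sex. *Winnie* mice carry a missense mutation of the mucin gene *Muc2*, made by goblet cells of the gut, and develop chronic colitis spontaneously. Both genotypes came from the same breeding colony, and the mutation is carried by the whole animal, with no restriction to a tissue.

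Both families bind nascent RNA. SR proteins carry an RNA-binding domain and a tail rich in arginine and serine, bind exonic enhancers and help the U1 particle and U2AF to recognise splice sites. The hnRNP proteins coat the transcript and often work against SR proteins, by binding silencers or by masking splice sites, and several also act in mRNA export, transport and decay. Many genes of both families limit their own product by splicing in an exon with a stop codon, or by keeping an intron, which sends the transcript to nonsense-mediated decay. In neurons, which use alternative splicing heavily, the balance among these proteins and neuronal regulators such as the Rbfox and Nova proteins sets which exons are kept.

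The values are CPM (counts scaled by library size), the reads of a gene scaled to a common total for every brain. The brains held 16540303 to 23923769 reads, and the members were supported by 235 to 9212 reads in each brain. Mitochondrially encoded genes held 7.71% to 9.21% of the reads in C57BL/6 and 5.96% to 10.8% in *Winnie* brains. *Xist* and *Ddx3y*, which mark female and male tissue, went with the sex label in all 10 *Winnie* brains and against it in 9 of the 10 C57BL/6 brains, so sex was compared only among *Winnie* brains. The numbers after the letter S in the sample names run from 1 to 10 for C57BL/6 and from 11 to 20 for *Winnie*. The labels do not say what these numbers count. Any batch that follows them and genotype cannot be told apart. The labels name separate mice only by a number, and the study's methods give fewer brains per genotype than the labels do. Of 44 markers of neurons, glia, endothelium, choroid plexus, blood and brain regions, 1 was called between the genotypes, *Cldn5* of endothelium (log2 fold change −0.47, SE 0.08). Over all genes 2.52% were called. At an unadjusted limma p under 0.05 there were 5 markers (11.4%), against 17.6% of all genes. The other 3 endothelial markers lay above 0, *Slco1a4* at 0.34 (SE 0.09), *Pecam1* at 0.09 and *Flt1* at 0.09, so that the median of that list was 0.09. The neuronal markers of the list summed to between 5868 and 6797 CPM in C57BL/6 and between 5988 and 6593 CPM in *Winnie* brains, and none was at 0. The cerebellar granule cell list summed to between 36.66 and 76.64 CPM in C57BL/6 and between 47.44 and 56.99 CPM in *Winnie* brains. In that list *Gabra6* lay between 0.13 and 7.44 CPM in C57BL/6 and between 0 and 1.40 CPM in *Winnie* brains. Its log2 fold change was −0.75 (SE 0.41), with *Cbln3* at −0.64 (SE 0.37), *Neurod1* at −0.03 and *Cbln1* at 0.02. The striatal list summed to between 196 and 699 CPM in C57BL/6 and between 186 and 724 CPM in *Winnie* brains. All 5 striatal and all 5 blood markers had a log2 fold change below 0, with medians of −0.21 and −0.28. Of the microglial markers 4 of 5 lay below 0 (median −0.09), as did 4 of 5 oligodendrocyte markers (median −0.05). The medians were −0.03 for neurons, −0.01 for astrocytes and −0.08 for choroid plexus. The part of these differences in tissue in any value below was not tested. In whole brain RNA, fewer cells of a type and less RNA per cell cannot be told apart.

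The 31 genes lie on 16 chromosomes. By GENCODE M21 on GRCm38, *Hnrnpc* spans chr14:52073377-52104028 on the minus strand, *Hnrnpa2b1* chr6:51460932-51469894 on the minus strand and *Srsf2* chr11:116849901-116853094 on the minus strand. A transcript annotated as a target of nonsense-mediated decay is listed for 10 of the 20 hnRNP genes and for 9 of the 11 SR genes, against 27.0% of the 14638 protein-coding genes analysed. A transcript with a retained intron is listed for 14 hnRNP and 8 SR genes, against 55.9% of those coding genes. The members also have more annotated transcripts, with medians of 8 (hnRNP), 7 (SR) and 5 (all coding genes). The part of this in the shares was not tested. The transcripts of both families are poor in G and C, the medians being 43.9% (hnRNP), 42.8% (SR) and 49.9% (all coding genes). The counting was per gene, so productive transcripts and those annotated for decay share 1 value.

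RefSeq promoter windows on GRCm38.p6 were found for 29 of the 31 members, all but *Hnrnpll* and *Hnrnpul2*. The 250 bases before the start were searched on both strands for CCAAT, for the Sp1 box GGGCGG and for TATAAA, for the cAMP element TGACGTCA, and for the cores GCGCATGCG (NRF1), CCGGAAGT (ETS factors) and AAGATGGCG (YY1). CCAAT was present in 12 of 18 hnRNP and 3 of 11 SR windows, against 35.6% of 11707 windows of genes analysed. The Sp1 box was present in 13 hnRNP and 10 SR windows, against 57.5%, and TATAAA in 1 hnRNP and 2 SR windows, against 6.54%. The NRF1 core was in the window of *Srsf7* alone, against 2.78% of all windows, and the ETS core in 4 members, *Hnrnpd*, *Hnrnpf*, *Srsf4* and *Srsf5*, against 5.29%. The cAMP element and the YY1 core were in none of the 29, against 2.73% and 1.08%. The median window of SR genes was 68.0% G and C, that of hnRNP genes 60.6% and that of all genes 60.0%. Shown here are the windows of *Hnrnpc*, the member called between the genotypes, and of the gene of each family most abundant per kilobase of exon. They run 5′ to 3′ and end at the base before the start, with CCAAT (or ATTGG on this strand) and TATAAA in capitals.
Hnrnpc: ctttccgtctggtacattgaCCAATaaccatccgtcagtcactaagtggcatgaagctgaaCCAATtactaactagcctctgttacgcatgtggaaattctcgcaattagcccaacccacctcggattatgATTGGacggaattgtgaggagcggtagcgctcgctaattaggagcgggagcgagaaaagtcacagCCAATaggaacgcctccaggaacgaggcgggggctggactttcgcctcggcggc
Hnrnpa2b1: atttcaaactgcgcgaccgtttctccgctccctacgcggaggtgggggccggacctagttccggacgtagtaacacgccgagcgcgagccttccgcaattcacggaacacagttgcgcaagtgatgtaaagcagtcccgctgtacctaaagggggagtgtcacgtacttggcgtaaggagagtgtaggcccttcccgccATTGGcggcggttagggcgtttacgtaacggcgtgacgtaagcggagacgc
Srsf2: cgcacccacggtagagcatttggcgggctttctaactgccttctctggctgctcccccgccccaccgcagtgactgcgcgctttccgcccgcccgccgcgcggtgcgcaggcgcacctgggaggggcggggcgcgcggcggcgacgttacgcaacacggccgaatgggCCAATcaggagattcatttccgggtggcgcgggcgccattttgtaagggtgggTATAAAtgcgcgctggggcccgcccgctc
The *Hnrnpc* window, chr14:52104022-52104271 on the minus strand, holds 4 CCAAT letters, which begin 230, 189, 119 and 54 bases before the start. The *Hnrnpa2b1* window, chr6:51469895-51470144 on the minus strand, holds 1, and the *Srsf2* window, chr11:116853095-116853344 on the minus strand, holds 1 and a TATAAA that begins 29 bases before the start. These matches are descriptions of the letters and not of binding.

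To compare levels between genes, CPM was divided by the length of the exons in kilobases. This length joins all annotated exons of a gene and can be far above that of the longest transcript. It was 5953 against 2679 bases for *Hnrnpl* and 2958 against 1899 bases for *Srsf2*, so the order depends on this choice. *Hnrnpa2b1*, which binds silencers and helps carry mRNA into dendrites, was the most abundant member at 53.2 CPM per kilobase (median of 20 brains, range 46.8 to 65.0). Its range lay above that of every other member. *Srsf2*, which binds exonic enhancers and fills nuclear speckles, came second by this measure, and first of the SR genes, at 39.5 (35.8 to 44.8). By CPM alone *Srsf1*, *Srsf5* and *Srsf11* lay above it, with C57BL/6 means of 152, 136 and 135 CPM against 121 CPM. *Hnrnpab*, *Hnrnpul2*, *Hnrnpc*, *Hnrnpa0* and *Srsf5* followed at medians of 33.4 to 36.7, and from *Srsf2* down to *Hnrnph3* at 14.3 each gene's range overlapped that of the next. A gap separated *Hnrnph3* (lowest brain 12.1) from *Srsf9*, the next in order (highest brain 11.7). At the low end lay *Srsf12* at 6.90, *Hnrnpll*, best known for splicing of the CD45 transcript in lymphocytes, at 4.86, and *Hnrnpr*, a partner of mRNAs carried along axons, at 3.77. The ranges of these 3 did not overlap each other. *Hnrnpr* has 22.2 kilobases of annotated exon, the most of any member, by which its CPM was divided.

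**Figure D1:**
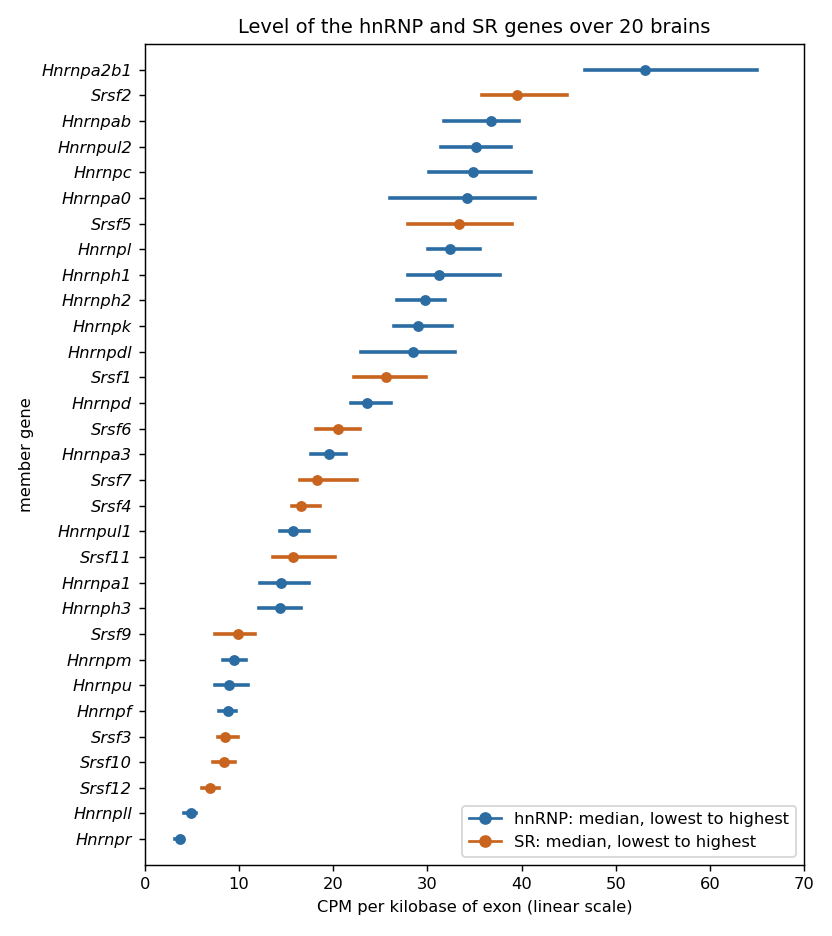
CPM per kilobase of exon for the 31 members, with the median over 20 brains as a point and the lowest to highest brain as a line, hnRNP genes in blue and SR genes in orange. *Hnrnpa2b1* stands alone at 53.2 and the rest form a continuous run down to 14.3, below which *Srsf9* and 8 others lie apart.

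The median absolute log2 fold change between the genotypes was 0.055 for the members and 0.067 for all genes. Of the 31 genes 1 was called at a false discovery rate (FDR) under 0.05 by limma, *Hnrnpc*, which was lower in *Winnie* brains, and 0 of the 11 SR genes were called. Over all genes 2.52% were called, and 1.01% were called lower in *Winnie*. At an unadjusted p under 0.05 there were 5 members, 4 hnRNP and 1 SR gene, all lower in *Winnie*, where 17.6% of all genes passed in either direction and 8.08% were lower. Since the families were picked on this contrast, nothing is read from these counts. The 95% confidence intervals of all 31 members lay between −0.29 and 0.20 on the log2 scale. Of the hnRNP genes 13 of 20 and of the SR genes 8 of 11 had a log2 fold change below 0, against 49.0% of all genes. The median was −0.04 for both families and 0.002 for all genes. Without *Winnie* replicate 5 the medians were −0.02 for both families and 0.011 for all genes. With 1 brain left out at a time, the hnRNP median ran from −0.058, without *Winnie* replicate 6, to −0.020, without *Winnie* replicate 5. The SR median ran from −0.057, without *Winnie* replicate 1, to −0.016, without *Winnie* replicate 5. No member had groups that did not overlap, and over all genes 0.0291% did.

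**Figure D2:**
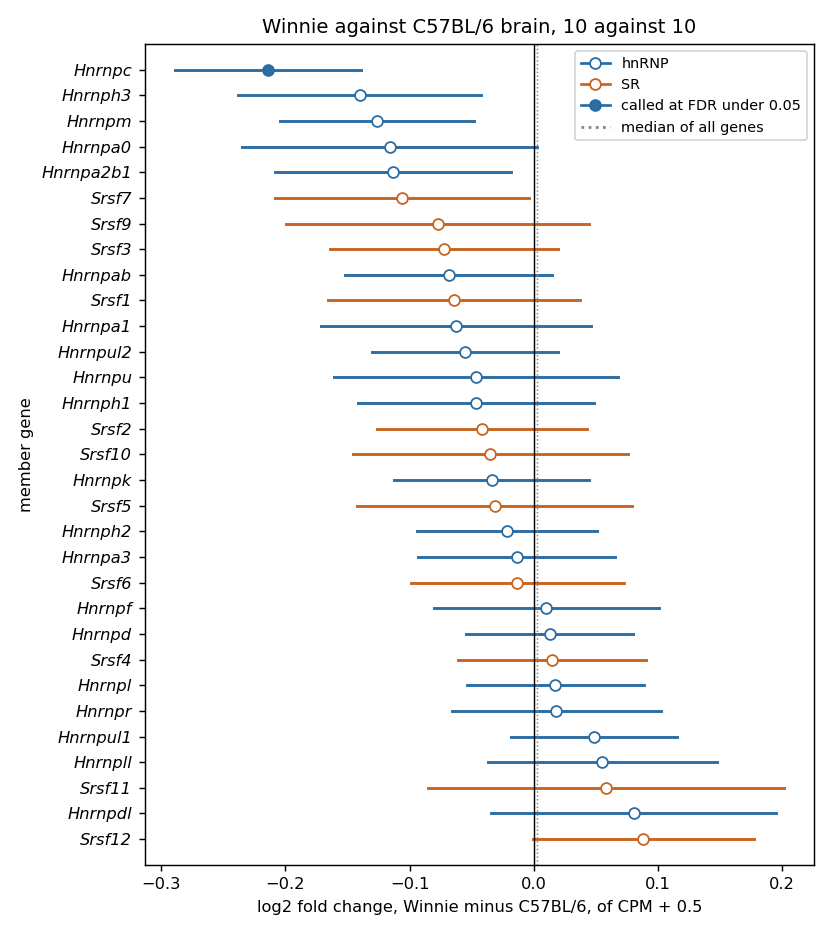
Log2 fold change of CPM + 0.5, *Winnie* minus C57BL/6, for each member with its 95% confidence interval from limma over 10 against 10 brains, hnRNP in blue and SR in orange, filled where called at an FDR under 0.05. The values run from −0.21 for *Hnrnpc* to 0.09 for *Srsf12*, and 21 of the 31 points lie left of 0.

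*Hnrnpc* encodes the C proteins, which form tetramers on tracts of uridine, help to sort long transcripts for export and compete with U2AF2 at the polypyrimidine tract. It lay at 150.2, 165 and 177 CPM (lowest, median and highest) in C57BL/6 and at 131, 141 and 151 CPM in *Winnie* brains. All 10 *Winnie* brains lay below the C57BL/6 median and 9 of them below the lowest C57BL/6 brain. The exception was *Winnie* replicate 6, at 151 CPM, which lay above C57BL/6 replicate 6. The group means were 165 ± 9.68 CPM (SD, n = 10) and 142 ± 6.07 CPM (SD, n = 10), which is 13.9% lower in *Winnie*, with a log2 fold change of −0.21 (SE 0.04, 95% confidence interval −0.29 to −0.14). The gene is supported by 2336 to 4005 reads a brain, and its promoter window is the first of those shown above. No annotated gene overlaps it on the opposite strand.

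*Hnrnpm* (chosen after its values were seen, as the member whose call changed with the processing) binds GU-rich RNA and competes with other regulators at exons of epithelial transcripts. It lay at 74.8, 78.2 and 85.4 CPM in C57BL/6 and at 65.8, 72.0 and 79.2 CPM in *Winnie* brains. The groups overlapped, with 7 *Winnie* brains below every C57BL/6 brain. Its log2 fold change was −0.13 (SE 0.04, 95% confidence interval −0.20 to −0.05), and it passed the FDR threshold under 6 other processings and without *Winnie* replicate 1, but not in the analysis reported.

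*Hnrnpa2b1*, the most abundant member, lay at 339, 371 and 428 CPM in C57BL/6 and at 308, 334 and 391 CPM in *Winnie* brains. The ranges overlapped over most of their length, and 5 *Winnie* brains lay below the lowest C57BL/6 brain. The log2 fold change was −0.11 (SE 0.05, 95% confidence interval −0.21 to −0.02). Its close relatives of the A/B group also lay below 0, each with an interval that held 0. *Hnrnpa0*, which binds AU-rich elements of mRNA, was at −0.12. *Hnrnpa1*, the best studied repressor of exons, was at −0.06, and *Hnrnpa3* at −0.01.

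*Hnrnpf*, which binds runs of guanosine, had the smallest difference of the hnRNP genes. It lay at 24.0, 26.6 and 29.6 CPM in C57BL/6 and at 24.4, 27.0 and 28.7 CPM in *Winnie* brains, so that the *Winnie* range fell inside that of C57BL/6. The log2 fold change was 0.01 (SE 0.04, 95% confidence interval −0.08 to 0.10). Of the other genes of the F/H group, *Hnrnph3* was at −0.14 (SE 0.05), with 7 *Winnie* brains below every C57BL/6 brain, while *Hnrnph1* was at −0.05 and the X-linked *Hnrnph2* at −0.02.

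The remaining hnRNP genes lay between −0.07 and 0.08. Among the genes near the D group, *Hnrnpab* was at −0.07, *Hnrnpd*, whose product binds AU-rich elements and promotes mRNA decay, at 0.01, and *Hnrnpdl* at 0.08. *Hnrnpk*, a KH-domain protein on C-rich RNA, was at −0.03. *Hnrnpl*, which binds CA repeats, was at 0.02 and its relative *Hnrnpll* at 0.06. *Hnrnpr* was at 0.02. Of the U group, *Hnrnpu*, which ties RNA to chromatin, was at −0.05, *Hnrnpul1* at 0.05 and *Hnrnpul2* at −0.06. The SE of these values ran from 0.03 to 0.06, and the intervals of all of them held 0.

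Among the SR genes, *Srsf2* lay at 109.9, 120.0 and 132 CPM in C57BL/6 and at 106, 116 and 132 CPM in *Winnie* brains. The ranges nearly coincided, and the log2 fold change was −0.04 (SE 0.04, 95% confidence interval −0.13 to 0.04). *Srsf6*, one of the SR proteins with paired RNA-binding domains, had the smallest difference of its family. It lay at 93.4, 97.8 and 109 CPM in C57BL/6 and at 87.6, 99.9 and 110.1 CPM in *Winnie* brains, with a log2 fold change of −0.01 (SE 0.04, 95% confidence interval −0.10 to 0.07). The other SR proteins with paired domains were *Srsf1*, a general activator of splicing, at −0.06, *Srsf9* at −0.08, *Srsf5* at −0.03 and *Srsf4* at 0.01. *Srsf3* and *Srsf7*, which also link mRNA to the export receptor, were at −0.07 and −0.11, and *Srsf7* was the 1 SR gene with an interval that left out 0 (−0.21 to −0.004). Of the SR-like genes, *Srsf10*, which represses splicing when dephosphorylated, was at −0.04, *Srsf11* at 0.06 and *Srsf12* at 0.09. All 10 *Winnie* brains lay above the C57BL/6 median of *Srsf12*, and its interval was −0.001 to 0.18.

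**Figure D3:**
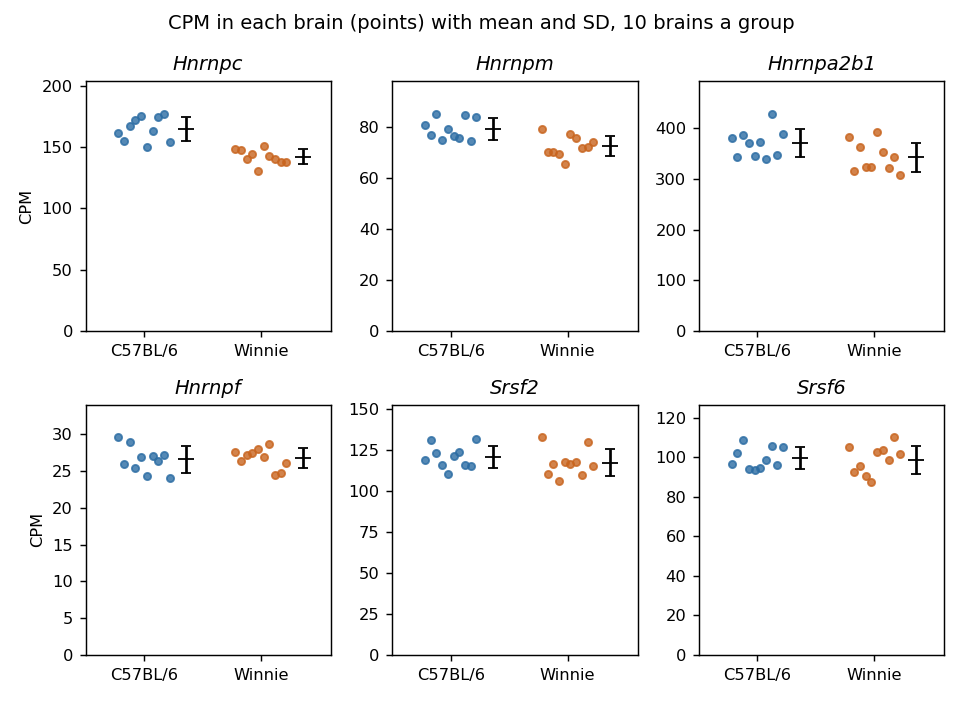
CPM in each brain for 6 members, C57BL/6 in blue and *Winnie* in orange, with the mean and SD of 10 brains beside the points and every axis from 0. *Hnrnpc* is the panel in which the groups nearly separate (150.2 to 177 against 131 to 151 CPM), while those of *Hnrnpf* and *Srsf6* lie over each other.

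Summed over the family, the hnRNP genes held 2683 ± 83.1 CPM (SD, n = 10, range 2549.9 to 2834) in C57BL/6 and 2599 ± 111 CPM (SD, n = 10, range 2411 to 2819) in *Winnie* brains, a ratio of 0.969. The SR genes held 939 ± 57.1 CPM (SD, n = 10) in C57BL/6 and 923 ± 62.4 CPM (SD, n = 10) in *Winnie* brains, a ratio of 0.982. The ranges of the genotypes overlapped for both families. Those of the SR sums were 868 to 1031 CPM in C57BL/6 and 838 to 1006 CPM in *Winnie* brains. *Winnie* replicate 5 was the lowest brain for both sums (2411 and 838 CPM) and had the highest mitochondrial share, 10.8%. Without the mitochondrial genes in the total, the ratios were 0.966 and 0.979. The part of the mitochondrial share in the low sums of that brain was not tested.

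**Figure D4:**
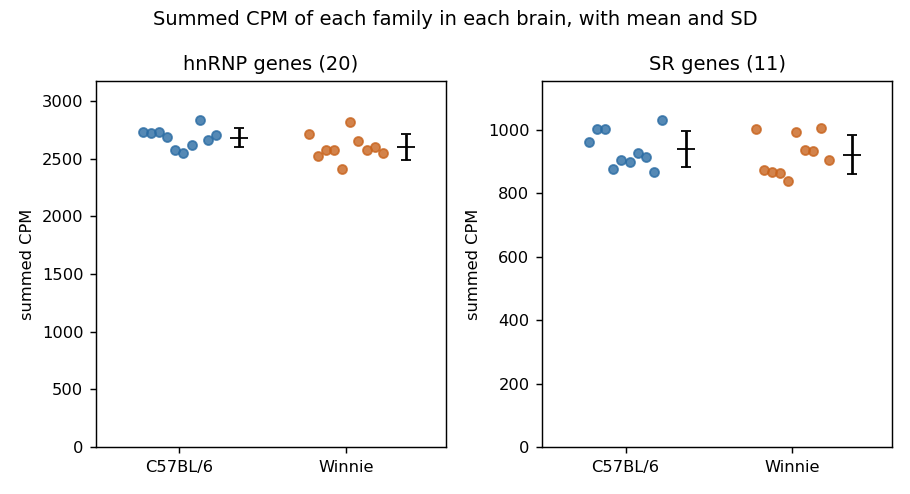
Summed CPM of the 20 hnRNP genes (left) and the 11 SR genes (right) in each brain, with the mean and SD of 10 brains beside the points and axes from 0. The groups overlap in both panels, and the lowest *Winnie* point is replicate 5 in each (2411 and 838 CPM).

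The coefficient of variation over the 10 brains of a genotype ran from 3.30% to 12.2% for the members, the median member being at 6.71% in C57BL/6 and at 6.63% in *Winnie* brains, where the reads behind the genes give 1.21% to 5.62% from counting alone. *Srsf12* in *Winnie* brains was the exception, at 4.90% against 4.92% from counting. *Srsf11* varied most, by 11.6% in C57BL/6 and 12.2% in *Winnie* brains, and *Hnrnpdl* by 11.5% in C57BL/6. The median Pearson correlation over pairs of members across 10 brains was 0.17 for hnRNP and 0.38 for SR genes in C57BL/6, and 0.40 and 0.45 in *Winnie* brains. The same medians by Spearman were 0.12 and 0.36 in C57BL/6, and 0.34 and 0.30 in *Winnie* brains. Pairs of an hnRNP with an SR gene had Pearson medians of 0.11 in C57BL/6, close to the 0.08 of hnRNP with all genes of similar level, and 0.41 in *Winnie* brains, where hnRNP genes with all genes of similar level were at 0.12. Pairs among the 8014 genes of similar level had medians of 0.04 in C57BL/6 and 0.09 in *Winnie* brains. Without *Winnie* replicate 5 the Pearson medians in *Winnie* were 0.31 for hnRNP and 0.26 for SR genes. By Spearman they were then 0.25 for hnRNP and 0.30 for SR genes. The medians across the families and with genes of similar level were not computed without that brain. Within a family, the closest pairs were *Srsf2* with *Srsf11* in C57BL/6 (Pearson 0.91) and *Hnrnpll* with *Hnrnpu* in *Winnie* brains (Pearson 0.96). Some pairs went opposite ways, such as *Hnrnpul1* and *Hnrnpul2* in *Winnie* brains (Pearson −0.73). The points of these correlations share library and depth, and they are given as descriptions.

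**Figure D5:**
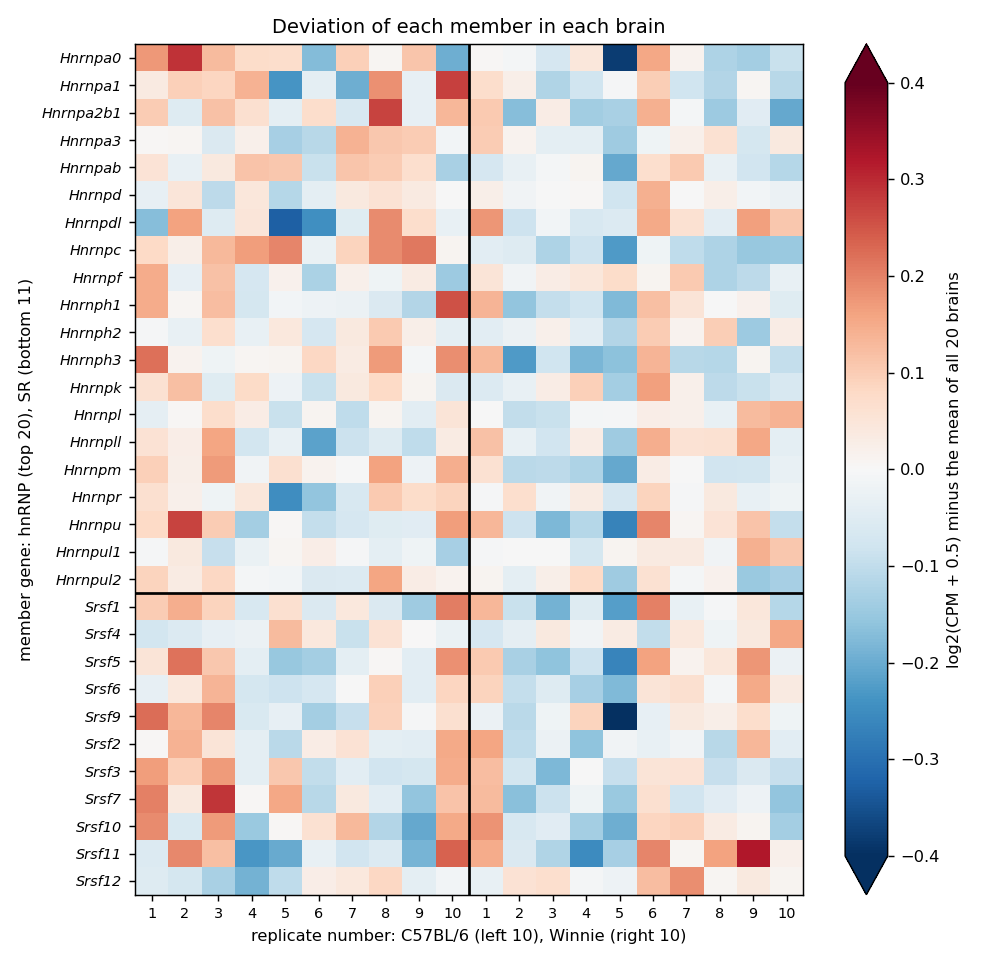
Log2(CPM + 0.5) of each member in each brain minus the mean of all 20 brains, hnRNP genes above and SR genes below the line, C57BL/6 left and *Winnie* right, red higher and blue lower. *Winnie* replicate 5 is low for most members (median deviation −0.14 for hnRNP and −0.15 for SR genes), and *Winnie* replicate 6 is high (0.10 and 0.06).

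Labelled male and labelled female *Winnie* brains give a comparison apart from the one the families were picked on. In the sample names the females have the S numbers 11 to 15 and the males 16 to 20. Any batch that follows these numbers and sex cannot be told apart. None of the 31 members passed an FDR under 0.05 by limma, where 0.116% of all genes did, and 4 members passed an unadjusted p under 0.05, 1 hnRNP and 3 SR genes, where 9.81% of all genes did. All 11 SR genes and 16 of the 20 hnRNP genes had a higher mean in the labelled males, against 9361 of the 17211 genes. The median log2 difference, male minus female, was 0.07 for SR, 0.05 for hnRNP and 0.01 for all genes. Without *Winnie* replicate 5, a labelled female, the numbers higher in males were 10 of 11 SR and 11 of 20 hnRNP genes. The medians were then 0.04 for SR, 0.02 for hnRNP and −0.007 for all genes. Over 16 alternatives the numbers ran from 9 to 11 SR and from 11 to 18 hnRNP genes. The SR genes vary together among *Winnie* brains (median Pearson correlation of pairs 0.45), so these counts are not of separate observations. The SR median was 0.13 without replicate 1 and 0.11 without replicate 10, and the hnRNP median was 0.03 without replicate 6.

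*Srsf11* showed the widest sex difference of the members. It lay at 115, 126 and 152 CPM (lowest, median and highest) in the 5 females and at 137, 153 and 171 CPM in the 5 males, and 3 males lay above every female. The log2 difference was 0.22 (SE 0.07), with a two-sided exact permutation p of 0.0397, where 0.00794 is the smallest that 5 against 5 can give, and a limma FDR of 0.261. *Srsf5* was at 111, 122 and 144 CPM in females and at 132, 138 and 151 CPM in males, a log2 difference of 0.18 (SE 0.06, exact permutation p = 0.0476, limma FDR 0.317). *Srsf6* differed by 0.13 (SE 0.06, exact permutation p = 0.0476, limma FDR 0.437). The hnRNP gene under that unadjusted limma threshold was *Hnrnpu*, with a log2 difference of 0.16 (SE 0.07, exact permutation p = 0.0952, limma FDR 0.445). By the exact test alone 2 other hnRNP genes were at p = 0.0397 with 4 males above every female. The exact test was run on the members only, so its p-values have no share over all genes to be read against. *Hnrnpl* lay at 180, 191 and 192 CPM in females and at 189, 196 and 212 CPM in males, a log2 difference of 0.10 (SE 0.05, limma FDR 0.563). *Hnrnpul1* lay at 130.03, 136 and 137 CPM in females and at 135, 140.1 and 151 CPM in males, a log2 difference of 0.07 (SE 0.05, limma FDR 0.680). None of these 6 holds after adjustment over all genes. *Hnrnpc* lay at 142 ± 7.24 CPM (SD, n = 5) in females and at 142 ± 5.51 CPM (SD, n = 5) in males, with an interval of the log2 difference from −0.11 to 0.11.

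The wider splicing machinery was read through 8 lists with 125 genes measured of 126 listed. At an FDR under 0.05, 1 gene was called, *Scaf4*, and at an unadjusted p under 0.05 there were 29 (23.2% of the listed genes). Over all genes the shares were 2.52% and 17.6%. The 22 SR-related proteins outside the Srsf names had 17 genes above 0 and a median log2 fold change of 0.05. *Scaf4*, a protein that binds the tail of RNA polymerase II and guards against early polyadenylation, was higher in *Winnie* brains. It lay at 36.5, 43.2 and 51.4 CPM in C57BL/6 and at 45.4, 50.4 and 54.8 CPM in *Winnie* brains (log2 fold change 0.21, SE 0.05, limma FDR 0.0247). The ranges overlapped, and the call was lost in 5 of 33 alternatives, among them without C57BL/6 replicate 5, without C57BL/6 replicate 8 and without *Winnie* replicate 7. Members of this list that did not pass include *Tra2a*, a partner of SR proteins on exonic enhancers, at −0.19, and *Srrm4*, which drives neuronal microexons, at 0.15.

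No gene of the other 7 lists was called by limma. Among hnRNP proteins with other gene names, 11 of 21 lay below 0, with a median of −0.004. *Raly*, the closest relative of *Hnrnpc*, was at −0.13 (SE 0.05) and its brain relative *Ralyl* at −0.13 (SE 0.04), while *Ptbp1*, a repressor of neuronal exons, was at 0.15 (SE 0.04). Of the proteins of the U1 and U2 particles and U2AF, 17 of 28 lay below 0, with a median of −0.04. The kinases that act on the SR tail, listed with the phosphatase regulator *Ppp1r8*, had 8 of 10 genes above 0 and a median of 0.03. Neuronal and tissue regulators had 12 of 20 below 0 with a median of −0.005, decay factors 6 of 14 below 0 with a median of 0.01, and importins of SR and hnRNP proteins 2 of 3 below 0. The nuclear-retained RNAs, whose level moves with the nuclear share of the RNA, had 3 of 7 below 0 with a median of 0.05.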

How the data were processed

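Brain RNA of 10 C57BL/6 and 10 *Winnie* mice was sequenced from polyA libraries on an MGISEQ-2000RS as paired reads. The authors ran the RNAsik pipeline on GRCm38, counted reads per gene with featureCounts and deposited CPM made with Degust. The submitters' processing notes name featureCounts and limma. The aligner and the strandedness of counting are not given in the sources used here, and 12 members overlap a gene on the opposite strand, so reads of such partners cannot be told apart. Reads of processed pseudogenes, which hnRNP genes have in number, could also be split among copies.

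All values of a brain were whole multiples of 1 read (100% within 0.0005 CPM), so reads were recovered. Depth limits each value through the counting error given in the report, and intervals of fold changes come from the spread between samples, which may be technical. The table was tested whole with limma 3.58.1 (R 4.3.3, trend and robust variance) on log2(CPM + 0.5), with Benjamini-Hochberg FDR over 17211 genes. A fold change on this scale understates that of low genes. This found 434 genes (261 higher, 173 lower) at an FDR under 0.05. On recovered reads edgeR 4.0.16 found 292 higher and 222 lower genes at that FDR. The genotype fit has no covariate. Single members were compared between labelled sexes of *Winnie* with an exact permutation test (scipy 1.17.1). The limma step was tested on simulated data.

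The members and the gene lists were chosen with earlier results of these data known. Values per brain are given for members called and for called list genes. They are also given for the least different member of each family and for the most abundant per kilobase of exon. Genes named beyond this were chosen after their values were seen. Exon lengths and transcript types come from GENCODE M21, which matched 17128 genes. The replicate numbers of the 2 genotypes do not pair the brains, by the check in the closing section. Protein features were planned and not run. All columns of the table were used (0 left out).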

Additional observations from a re-analysis of the deposited data

Results flagged for a closer look

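Each member and each family sum was read in each genotype for a brain that stands apart from the other 9 by Dixon's criterion, which gave 3 flags in 66 groups, where chance alone flags about 1 in 20. *Hnrnpd* was high in *Winnie* replicate 6, at 191.86 CPM against a median of 174 CPM. *Srsf4* was high in *Winnie* replicate 10, at 66.369 CPM against a median of 60.0 CPM. *Srsf9*, the SR gene with fewest reads, was low in *Winnie* replicate 5, at 12.3 CPM against a median of 16.3 CPM, and that brain had the highest mitochondrial share.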

How the results depend on the processing

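The count of members called was 2 in place of 1, with *Hnrnpm* added (log2 fold change −0.13 to −0.15), for both families together and for hnRNP genes, under median-ratio scaling, TMM scaling, a total without mitochondrial genes, edgeR, DESeq2 and a correction for GC content and length. It was 0 at an FDR under 0.001 with a 1.5-fold change. The log2 fold change of *Hnrnpc*, a member of families picked on this contrast, ran from −0.23 to −0.19 over the 33 alternatives fitted, which is no independent support, and it missed that stricter threshold. The SR count was 0 in all of them. Leaving out 1 brain gave 1 to 2 called members in all, 1 to 2 hnRNP and 0 SR members, 0 among the labelled sexes and 0 to 8 list genes. The 2 came without *Winnie* replicate 1, and the 8 without C57BL/6 replicate 10. The list count was 3 with a minimum mean of 1 CPM, 9 by DESeq2, 0 with the GC and length correction and 0 at the strict threshold. With the replicate number as a block, 1 member and 1 list gene were called. The numbers do not pair the brains: same-numbered samples correlated between −0.29 and 0.15 after removing group means, 2 of 10 pairs over 0.1, and 1 sample was closest to its own number.

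Over all genes the block gave 147 higher and 80 lower, DESeq2 505 and 463, and the GC and length correction 138 and 156, against 261 and 173. Leaving out C57BL/6 replicate 5 gave 103 and 66, and leaving out C57BL/6 replicate 10 gave 454 and 240. The causes of these shifts were not tested. Of the 31 members 24 kept their direction in all 33 alternatives and 7 near 0 did not. *Hnrnpa3* and *Hnrnph2* became 0.0112 and 0.0086 without *Winnie* replicates 5 and 9, whose mitochondrial shares are the highest (an alternative chosen after seeing the data). *Hnrnpd* and *Hnrnpr* became −0.0362 and −0.073 with the GC and length correction. With 1 brain left out, *Hnrnpa3* ran from −0.0292 to 0.0012, *Hnrnpd* from −0.0022 to 0.0223, *Hnrnpf* from −0.0056 to 0.0273, *Hnrnpr* from −0.0082 to 0.031, *Srsf4* from −0.0015 to 0.0298 and *Srsf6* from −0.0311 to 0.0054. The sex differences of the 4 members with an unadjusted p under 0.05 stayed above 0 in 16 alternatives, with a limma FDR of at least 0.082. Counting error of the members was 1.21% to 5.62% per brain.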
